A study of Sus scrofa with 15 samples.

Results

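The unfolded protein response and the chaperones of the endoplasmic reticulum (ER) were followed in the liver of piglets through 36 genes. The genes were taken by symbol: each Ensembl pig identifier of the deposited count table that is paired with one of the 36 symbols was used. A row was found for 33 of the 36 among 31908 genes in the table, and 31 had enough reads to be tested among 12774 tested genes. ATF4, SDF2L1 and DERL1 are paired with no row here and were not analysed here. DDIT3 and SYVN1 have a row but lay below the filter on low counts, and their reads are given with their groups.

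The libraries were the input fraction of a methylated RNA immunoprecipitation experiment, so they hold polyadenylated liver RNA, broken by sonication, that never met the antibody and reads as ordinary RNA-seq. Male Duroc x Large White x Landrace piglets in the growing stage received 80 μg/kg of lipopolysaccharide (LPS), the endotoxin of Gram-negative bacteria, by intraperitoneal injection in the LPS group, or sterile saline in the CON group. The liver was taken 4 h later. Each group had 3 libraries of whole liver tissue, and no genotype, transgene or further agent is named for either group. The sources used here do not say which piglet gave which library, so p-values measure the spread between these libraries.

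The ER folds the proteins that a cell secretes or places in membranes, and hepatocytes make most plasma proteins by this route. When unfolded chains build up, the sensors IRE1 (gene ERN1), PERK (gene EIF2AK3) and ATF6 start the unfolded protein response. IRE1 splices the mRNA of XBP1 into the form that makes an active transcription factor, ATF6 is cut into a transcription factor, and PERK slows translation while the mRNA of ATF4 is still translated. The target genes include the chaperones of the ER lumen, the machinery that returns misfolded chains to the cytosol for degradation, and stress genes such as DDIT3, which encodes CHOP.

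CON libraries held 5927348 to 10351491 counts and LPS libraries 4348478 to 19967417. Levels are given as CPM, the count of a gene relative to its library total, after scaling of each library by edgeR's TMM factor, which was 0.735 in LPS replicate 3, the deepest library, and 0.979 to 1.11 in the others. LPS replicate 2 was closer to the CON libraries than the other LPS libraries were. Over the tested genes, which do not count as independent replicates, its log2 CPM correlated at 0.923 to 0.945 with the CON libraries, against 0.853 to 0.899 for LPS replicate 1 and 0.837 to 0.874 for LPS replicate 3. Among the LPS libraries, replicate 2 correlated at 0.907 and 0.852 with replicates 1 and 3, and replicates 1 and 3 at 0.903 with each other. All 15 hepatocyte markers checked were detected, and their summed level was 95352 to 112639 CPM in CON livers and 75459, 80783 and 151845 CPM in LPS replicates 1, 2 and 3. Of these markers, 11 had a log2 fold change of LPS over CON below 0 and 4 above 0, with a median of -0.31. FGB, with the highest fold change of the list, had 12715, 8098 and 9054 CPM in CON livers. It had 21935, 14561 and 44960 CPM in LPS replicates 1, 2 and 3. In bulk liver, fewer cells of a type and less RNA per cell cannot be told apart.

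No gene of the set passed the threshold of the study-wide comparison, a Benjamini-Hochberg adjusted p below 0.05 in edgeR's quasi-likelihood test with a fold change above 1.5. That threshold was passed by 7 genes of the 12774, or 0.0548%. DESeq2 called 1 of the 30 genes of the set that it tested, CRELD2, which was higher. It called 1.96% of all its tested genes higher and 1.02% lower. At an unadjusted p below 0.05, 8 of the 31 tested genes (25.8%) were higher in the LPS group and 0 were lower, where 6.18% of all tested genes were higher and 6.33% were lower. The 8 were CRELD2, HYOU1, DNAJB11, MANF, CALR, SSR1, DERL3 and PPP1R15A. In 8 genes the lowest LPS value exceeded the highest CON value, against 6.52% of all tested genes, and in 0 the order was reversed, against 9.80% of all tested genes. These 8 were HSP90B1, HYOU1, DNAJB11, CRELD2, CALR, PDIA6, SEC61A1 and SSR1, so HYOU1, DNAJB11, CRELD2, CALR and SSR1 met both criteria. For a gene taken alone, the smallest two-sided p that an exact permutation test allows with 3 libraries against 3 is 0.1, however far the groups lie apart.

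**Figure D1:**
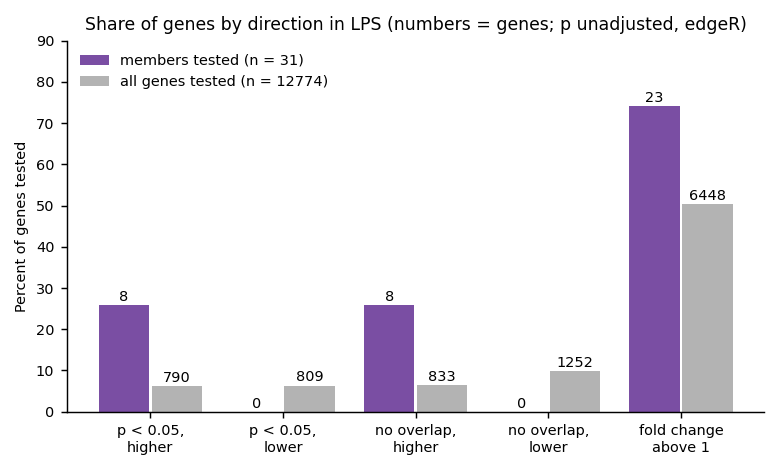
Percent of genes (vertical axis) that met each criterion on the horizontal axis, for the 31 tested genes of the set (purple) and all 12774 tested genes (grey), with the number of genes above each bar. The purple bars reach 25.8% for both criteria in the higher direction and stand at 0 for both in the lower direction, and 23 of the 31 genes had a fold change above 1, where the grey bar is at 50.5%.

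The median log2 fold change of LPS over CON was 0.56 over the 31 genes and 0.01 over all tested genes, and 23 of the 31 lay above 0, against 50.5% of all tested genes. The height of the set differed between libraries of a group. Relative to the CON mean, the median of the 31 genes on the log2 scale was 0.17, -0.22 and 0.06 in the CON libraries and 0.62, 0.11 and 0.69 in the LPS libraries, in replicate order, while the median of all tested genes stayed within 0.06 of 0 in each library. LPS replicates 1 and 3 were high, and LPS replicate 2 was lower than CON replicate 1. Without LPS replicate 3 the median log2 fold change of the set was 0.24. CON replicate 2 was the lowest library, with the lowest of the 6 values in 15 of the 31 genes. LPS replicates 1 and 3 each held the highest value in 11 genes, and LPS replicate 2 held it in 2.

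The result moved with the scaling. Without TMM factors, when libraries were scaled to total counts, the median of all tested genes shifted to -0.12 and that of the set to 0.39, and 4 genes of the set had an unadjusted p below 0.05 (PPP1R15A, HYOU1, DNAJB11 and CRELD2), all higher, where 4.39% of all tested genes were higher. Under that scaling the groups of 4 genes did not overlap (ATF6, HYOU1, CALR and SSR1), all higher, against 4.81% of all tested genes. As a plain share of counts, the 33 genes of the set with a row held 1.00%, 0.824% and 0.924% of the CON libraries. In the LPS libraries they held 1.25%, 1.16% and 0.822%, so LPS replicate 3 was the lowest library on this measure, almost level with CON replicate 2. This share leans on the most abundant genes and does not describe the set gene by gene. P4HB, at a log2 fold change of -0.56, had the most counts of the set in each CON library. It had 23212, 16510 and 30807 counts there and 7189, 14431 and 18854 in the LPS libraries.

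**Figure D2:**
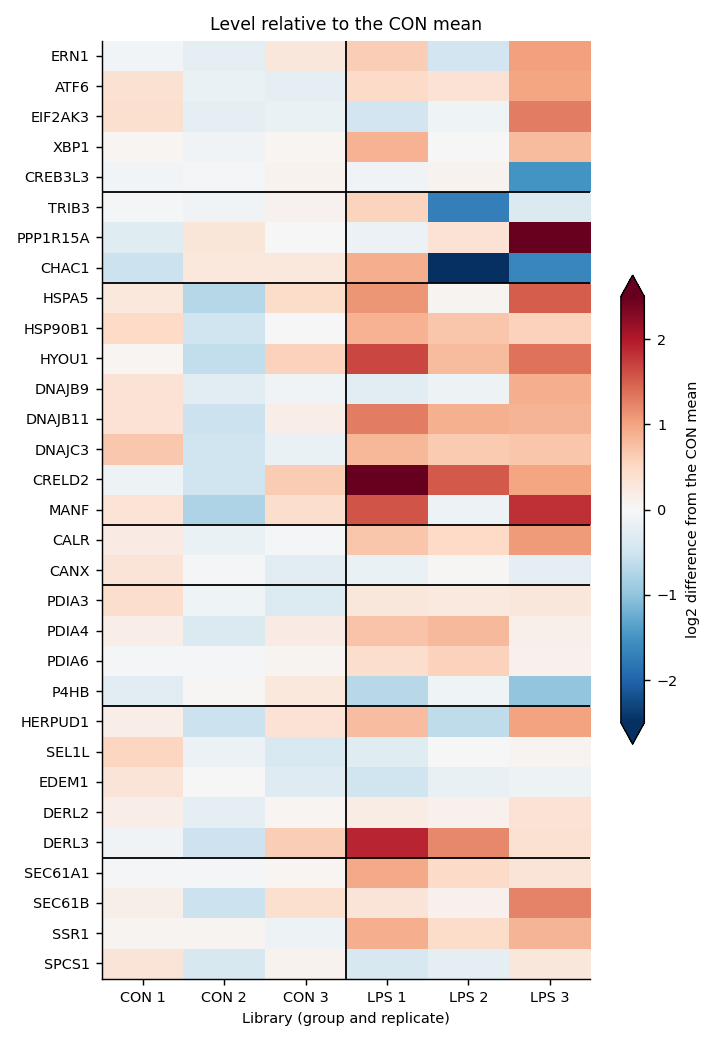
Log2 difference of each gene from its CON mean (colour, red higher and blue lower, ends of the scale cut at 2.5) in the 6 libraries (columns) for the 31 tested genes (rows), with horizontal lines between functional groups. The chaperone rows are mostly red in LPS replicates 1 and 3 and blue in CON replicate 2. In LPS replicate 2, HSPA5, HYOU1 and MANF are paler than in LPS replicates 1 and 3. CRELD2, HSP90B1 and DNAJB11 are at least as red there as in LPS replicate 3.

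The HSP70 and HSP90 chaperones of the ER and their partners had the highest median fold change of the functional groups. All 8 tested genes of this group had a log2 fold change above 0, from 0.26 to 1.73 with a median of 0.95. An unadjusted p below 0.05 was met by 4, all higher, where 6.18% of all tested genes were higher. In 4 the groups did not overlap, all higher, against 6.52% of all tested genes. CRELD2, listed in this group although its named activity is that of a disulfide isomerase, had the highest fold change and met both criteria. CRELD2 (ENSSSCG00000000981, chromosome 5, 709045 to 716927), which encodes a secreted and ER-resident protein with disulfide isomerase activity, had 43.8, 33.6 and 74.2 CPM in CON livers against 269.1, 139.6 and 95.3 in LPS livers, in the order of replicates 1, 2 and 3 that is kept for all genes. Every LPS library lay above every CON library, with LPS replicate 1 far above the rest and LPS replicate 3 close to CON replicate 3. The log2 fold change, given here and in what follows ± its standard error, was 1.73 ± 0.46 at an adjusted p of 0.212 (edgeR). CRELD2 had an unadjusted p below 0.05 under each of the 13 alternative settings tried, with log2 fold changes from 1.22 to 2.14, but its groups overlapped when libraries were scaled to total counts. HYOU1 (ENSSSCG00000015106, chromosome 9, 46264929 to 46276996), the large HSP70 relative of the ER that exchanges nucleotide on BiP, had 220.1, 138.9 and 320.2 CPM in CON livers against 682.7, 371.0 and 548.9 in LPS livers. No LPS library fell within the CON range, and the log2 fold change was 1.24 ± 0.40 at an adjusted p of 0.261 (edgeR). DNAJB11 (ENSSSCG00000011798, chromosome 13, 124390970 to 124413200), a J-domain partner of BiP, had 51.8, 27.8 and 45.3 CPM in CON livers against 97.9, 74.6 and 72.7 in LPS livers. Its LPS values were closer together than those of CRELD2 and all lay above the CON values, with a log2 fold change of 0.97 ± 0.33 at an adjusted p of 0.281 (edgeR).

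MANF (ENSSSCG00000032914, chromosome 13, 33658255 to 33662261), a secreted factor that also binds BiP, had 88.8, 40.6 and 94.8 CPM in CON livers against 208.9, 64.0 and 248.4 in LPS livers. LPS replicate 2 lay inside the CON range and the other LPS libraries lay above it. The log2 fold change was 1.22 ± 0.52 at an adjusted p of 0.377 (edgeR). HSPA5 (ENSSSCG00000005601, chromosome 1, 265930045 to 265934904), which encodes BiP, the HSP70 of the ER lumen that also holds the sensors inactive, showed the same arrangement of libraries. It had 521.6, 264.3 and 592.7 CPM in CON livers against 935.2, 452.2 and 1236 in LPS livers, a log2 fold change of 0.93 ± 0.45 at an adjusted p of 0.4403 (edgeR). HSP90B1 (ENSSSCG00000000849, chromosome 5, 80511507 to 80531005), which encodes the ER form of HSP90, GRP94, had 1413, 707.2 and 985.6 CPM in CON livers against 1817, 1617 and 1481 in LPS livers. Its groups did not overlap, yet the lowest LPS library was only just above CON replicate 1, and the log2 fold change was 0.66 ± 0.35 at an adjusted p of 0.474 (edgeR). DNAJC3, the J-domain protein known as p58IPK, was at a log2 fold change of 0.64 and DNAJB9 (ERdj4) at 0.26, with overlapping groups.

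**Figure D3:**
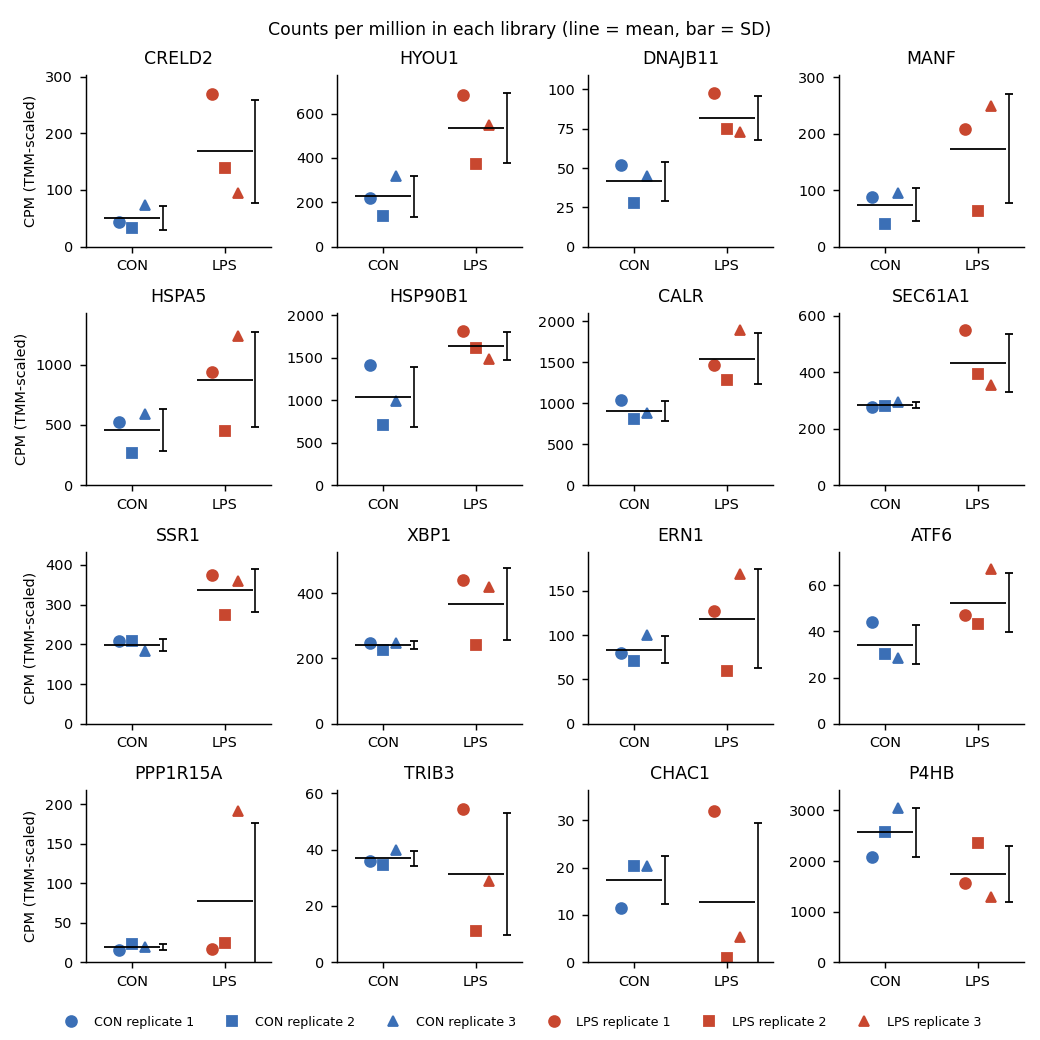
TMM-scaled CPM (vertical axes, each starting at 0) in the 3 CON libraries (blue) and 3 LPS libraries (red) for 16 genes, with a marker shape per replicate, the group mean as a line and 1 SD as a bar, clipped at 0 where it would pass below. For CRELD2, HYOU1, DNAJB11, CALR and SSR1 all red points lie above all blue points, as they do for HSP90B1 and SEC61A1. For MANF, HSPA5 and XBP1 LPS replicate 2 lies among the blue points, and for PPP1R15A LPS replicate 3 alone is high.

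The lectin chaperones hold newly made glycoproteins until they are folded, and the members of the pair differed in direction. CALR (ENSSSCG00000013746, chromosome 2, 66098225 to 66102340), which encodes the soluble lectin calreticulin, had 1040, 805.5 and 881.0 CPM in CON livers against 1464, 1280 and 1889 in LPS livers. The LPS libraries all lay above the CON libraries, and the log2 fold change was 0.76 ± 0.32 at an adjusted p of 0.367 (edgeR). CANX, which encodes the membrane-bound calnexin, was at a log2 fold change of -0.14 ± 0.31, with 242.7 to 370.6 CPM in CON livers and 252.5 to 302.3 CPM in LPS livers. The difference between the responses of CALR and CANX was not tested.

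The protein disulfide isomerases form and rearrange the disulfide bonds of secreted proteins, and 3 of the 4 had a log2 fold change above 0. PDIA6 (ENSSSCG00000008633, chromosome 3, 125751970 to 125776955) had 236.8, 239.7 and 254.7 CPM in CON livers against 329.0, 362.9 and 261.4 in LPS livers. The groups did not overlap, but LPS replicate 3 exceeded CON replicate 3 by little, and the log2 fold change was 0.38 ± 0.29 at an adjusted p of 0.632 (edgeR). PDIA4 was at a log2 fold change of 0.56 and PDIA3 at 0.23, with groups that overlapped. P4HB, which encodes the founding protein disulfide isomerase and the beta subunit of prolyl 4-hydroxylase, went the other way, with 2074, 2579 and 3046 CPM in CON livers against 1567, 2361 and 1287 in LPS livers. LPS replicate 2 lay in the CON range and the other LPS libraries lay below it. The log2 fold change of P4HB was -0.56 ± 0.35 at an adjusted p of 0.549 (edgeR).

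Of the sensors and the transcription factors they control, 5 were tested and 4 had a log2 fold change above 0, none with an unadjusted p below 0.05. XBP1 (ENSSSCG00000030996, chromosome 14, 46008377 to 46017036) had 248.1, 226.7 and 248.6 CPM in CON livers against 440.2, 241.1 and 417.2 in LPS livers. CON libraries were close together, LPS replicates 1 and 3 were well above them and LPS replicate 2 was inside their range, for a log2 fold change of 0.60 ± 0.33 at an adjusted p of 0.492 (edgeR). Counts per gene do not separate spliced from unspliced XBP1 mRNA. ERN1 (ENSSSCG00000039909, chromosome 12, 14881923 to 14997426) had 79.4, 71.1 and 100.5 CPM in CON livers against 127.1, 59.6 and 169.5 in LPS livers. LPS replicate 2 was the lowest of the 6 libraries and the other LPS libraries were the highest, and the log2 fold change was 0.51 ± 0.40 at an adjusted p of 0.641 (edgeR). ATF6 (ENSSSCG00000006346, chromosome 4, 88591280 to 88818372) had 44.0, 30.0 and 28.7 CPM in CON livers against 46.9, 43.2 and 66.9 in LPS livers, with LPS replicate 2 just under CON replicate 1. Its log2 fold change was 0.61 ± 0.32 at an adjusted p of 0.472 (edgeR).

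EIF2AK3 (ENSSSCG00000008208, chromosome 3, 57423875 to 57506247) had 13.4, 8.44 and 8.998 CPM in CON livers against 7.20, 9.33 and 24.7 in LPS livers. LPS replicate 3 alone lay above the CON range, and the log2 fold change of 0.44 ± 0.48 at an adjusted p of 0.752 (edgeR) became -0.30 without that library. CREB3L3, the liver form of the ATF6-like factors, had 377.4, 388.4 and 419.0 CPM in CON livers against 373.1, 417.7 and 140.7 in LPS livers. LPS replicate 3 was far below the CON level and the other LPS libraries were near it, and the log2 fold change was -0.35 ± 0.41. DDIT3 (ENSSSCG00000050998, chromosome 5, 22785441 to 22789829) had 1, 1 and 1 counts in the CON libraries and 1, 0 and 16 counts in LPS replicates 1, 2 and 3, with 1.09 CPM at most, so no fold change was taken. Of its exon bases, 89.0% are shared with exons of other annotated genes, among them a gene without a symbol on the same strand (ENSSSCG00000044553) with 173 counts over the 6 libraries. No source used here says how reads on shared bases were assigned, so a low count of DDIT3 is no measure of its mRNA.

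The tested outputs of the PERK arm did not share a direction. PPP1R15A (ENSSSCG00000003155, chromosome 6, 54172050 to 54175465), which encodes GADD34, the phosphatase subunit that restores translation, had 15.4, 23.7 and 19.2 CPM in CON livers against 17.2, 24.5 and 190.9 in LPS livers. A single library carried the difference: LPS replicates 1 and 2 were near the CON level and LPS replicate 3 was far above it. The log2 fold change of 2.01 ± 0.81 at an adjusted p of 0.362 (edgeR) became 0.12 without LPS replicate 3. TRIB3, a pseudokinase that dampens ATF4 and CHOP activity, had 36.1, 34.7 and 39.9 CPM in CON livers against 54.3, 11.1 and 28.7 in LPS livers, for a log2 fold change of -0.24 ± 0.48. CHAC1, a glutathione-degrading enzyme, had 11.4, 20.3 and 20.3 CPM in CON livers against 31.8, 0.82 and 5.26 in LPS livers, for a log2 fold change of -0.49 ± 0.92. For TRIB3 and CHAC1 alike LPS replicate 1 was the highest and LPS replicate 2 the lowest of the 6 libraries, so the LPS libraries enclosed the CON libraries.

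ER-associated degradation moves misfolded chains back to the cytosol, and its tested genes had a median log2 fold change of 0.21. DERL3 (ENSSSCG00000039626, chromosome 14, 49871218 to 49877683), a derlin of the exit channel, had 4.74, 3.44 and 7.81 CPM in CON livers against 19.6, 11.9 and 6.62 in LPS livers. LPS replicates 1 and 2 lay above the CON range and LPS replicate 3 within it, and the log2 fold change was 1.23 ± 0.49 at an adjusted p of 0.3503 (edgeR). The exons of DERL3 share 45.1% of their bases with SMARCB1 on the opposite strand, which had 1298 counts over the 6 libraries against 414 for DERL3. HERPUD1, a stress-induced organiser of the degradation complex, had 208.9, 127.6 and 240.1 CPM in CON livers against 318.3, 120.1 and 372.6 in LPS livers. As for ERN1, LPS replicate 2 was the lowest of the 6 libraries, and the log2 fold change was 0.49 ± 0.45. HERPUD1 shares 47.5% of its exon bases with SLC12A3, a gene with 1 count in all 6 libraries. DERL2, SEL1L and EDEM1 were at 0.21, -0.12 and -0.29 on the log2 fold change scale, each with overlapping groups. SYVN1, the ubiquitin ligase HRD1, had 0 counts in the CON libraries, which allows up to 3 counts in each, and 2, 0 and 2 counts in the LPS libraries, and 98.5% of its exon bases lie in exons of other genes.

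The translocon and its helpers bring new chains into the ER. SSR1 (ENSSSCG00000001022, chromosome 7, 4652917 to 4685885), a subunit of the translocon-associated protein complex, had 207.8, 208.7 and 182.1 CPM in CON livers against 375.0, 274.4 and 360.4 in LPS livers. The groups were well apart, with a log2 fold change of 0.75 ± 0.30 at an adjusted p of 0.3503 (edgeR). SEC61A1 (ENSSSCG00000011621, chromosome 13, 72254464 to 72365493), the channel-forming subunit, had 276.7, 279.2 and 294.5 CPM in CON livers against 549.9, 394.6 and 354.3 in LPS livers. All LPS libraries were above the closely spaced CON libraries, but the spread within the LPS group was wide, and the log2 fold change was 0.61 ± 0.31 at an adjusted p of 0.461 (edgeR). SEC61A1 shares 30.1% of its exon bases with KBTBD12, which had 6 counts. SEC61B, the beta subunit, was at a log2 fold change of 0.59 and SPCS1, a subunit of the signal peptidase complex, at -0.11, both with overlapping groups. SPCS1 shares 45.0% of its exon bases with NEK4 and GLT8D1 on the opposite strand. Those genes had 1496 and 1226 counts over the 6 libraries, against 1065 for SPCS1.

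**Figure D4:**
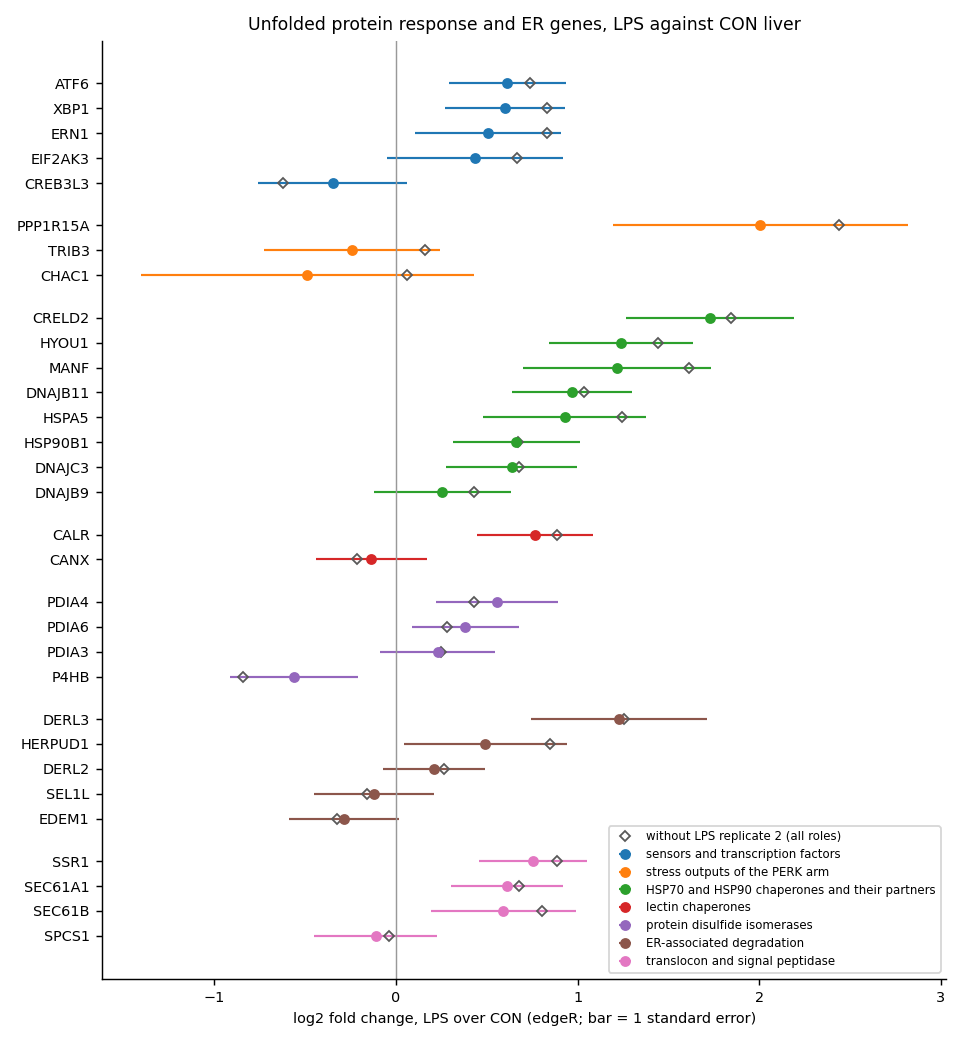
Log2 fold change of LPS over CON from edgeR (horizontal axis) for the 31 tested genes, with 1 standard error as a bar and colours by functional group, and open diamonds for the fit without LPS replicate 2. All 8 genes of the HSP70 and HSP90 group lie to the right of 0, and P4HB, CHAC1 and CREB3L3 lie farthest to the left.

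The most abundant genes of the set were not those with the highest fold changes. Per kilobase of exon, P4HB was highest in both groups, at 1081 ± 205 CPM per kb in CON livers and 732 ± 234 in LPS livers (mean and SD of 3 libraries). CALR followed at 351 ± 46.3 and 597 ± 121 CPM per kb, then HSP90B1 at 294 ± 101 and 465 ± 48.0 and HSPA5 at 180 ± 67.7 and 343 ± 155. CREB3L3 and PDIA3 were next in the CON group, at 175 ± 9.57 and 174 ± 50.8 CPM per kb, and these and HSPA5 differed by less than their spread. CRELD2, with the highest log2 fold change among genes whose groups did not overlap, was at 31.0 ± 12.9 CPM per kb in CON livers and 103 ± 55.4 in LPS livers, and DERL3 was the lowest tested gene in the CON group, at 1.01 ± 0.43 and 2.42 ± 1.24. EIF2AK3 was the lowest in the LPS group, at 2.14 ± 1.49 CPM per kb. The coefficient of variation was larger in the LPS group for 21 of the 31 genes, with a median of 24.2% for CON and 29.3% for LPS.

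**Figure D5:**
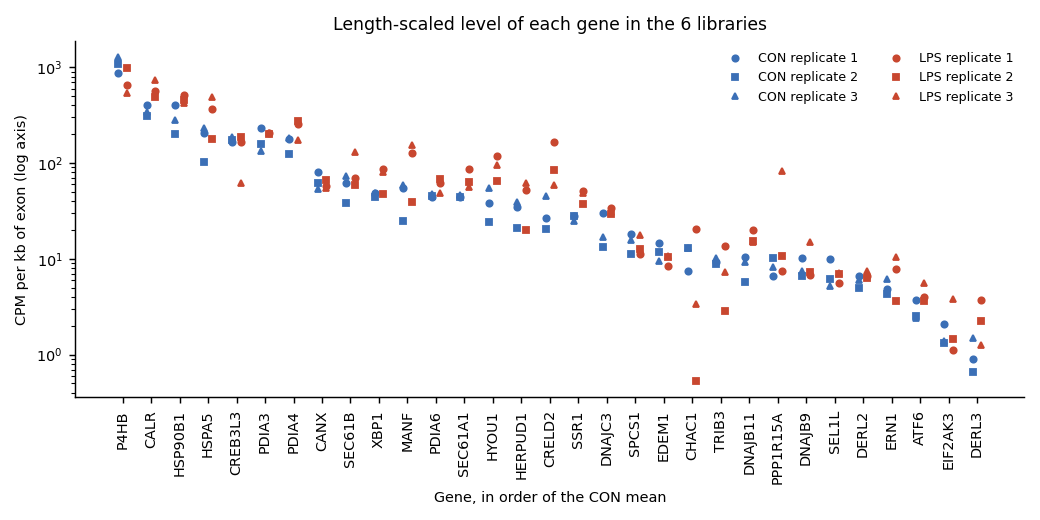
CPM per kilobase of exon on a log axis (vertical) in each of the 6 libraries for the 31 tested genes, ordered along the horizontal axis by their CON mean. P4HB has the highest CON mean and DERL3 the lowest, the LPS points of CALR, HSP90B1, HYOU1 and CRELD2 lie above their CON points, and the widest spread of LPS points is that of CHAC1.

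The number of genes past the threshold depended most on LPS replicate 2. Without it, edgeR called 512 genes higher (3.76% of those tested) and 470 lower (3.45%), and 2 of the 31 genes of the set were called, both higher. MANF was at a log2 fold change of 1.62 (edgeR adjusted p = 0.0347) and CRELD2 at 1.85 (edgeR adjusted p = 0.0417) in that fit, while HYOU1 was at 1.45 with an edgeR adjusted p of 0.0519. In that fit 12 genes of the set had an unadjusted p below 0.05, all higher, where 11.3% of all tested genes were higher, and the median of the set was 0.67. With all 6 libraries DESeq2 called 276 genes higher (1.96% of those tested) and 144 lower (1.02%), with CRELD2 (log2 fold change 1.77, DESeq2 adjusted p = 0.0123) the only gene of the set. Without CON replicate 2, CRELD2 was the only gene of the set, and so of the 8, with an unadjusted p below 0.05. It was higher, where 4.13% of all tested genes were higher at that p. The groups of 8 genes of the set did not overlap in that fit, all higher, against 9.44% of all tested genes.

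Genes of the same pathways outside the set were read from 6 lists, together with a list of cytosolic and mitochondrial heat shock genes, all written from general knowledge, with 137 symbols, of which 126 had a row and 123 were tested. None was called by edgeR, where 0.0548% of all tested genes were called. DESeq2 called 2 of the 124 that it tested, both higher, where it called 1.96% of all its tested genes higher. The median log2 fold change of the 123 genes was 0.16. At an unadjusted p below 0.05, 8 were higher and 1 was lower, where 6.18% of all tested genes were higher and 6.33% lower. The groups did not overlap in 6 in the higher and 3 in the lower direction, against 6.52% and 9.80% of all tested genes. Both DESeq2 calls and 5 of the 8 genes higher at the unadjusted p belong to the heat shock list (12 tested), whose median was 0.90. ER proteins that help folding and oxidation (20 tested) had a median of 0.19, those that add or check N-glycans (12 tested) 0.10, other degradation genes (20 tested) 0.20, other translocation genes (19 tested) 0.07 and ER to Golgi carriers (17 tested) -0.21. In these 5 ER lists MLEC, which encodes malectin, a lectin for glucosylated glycans, was the only gene at an unadjusted p below 0.05, with 208.5, 134.8 and 234.4 CPM in CON livers against 643.4, 207.8 and 441.5 in LPS livers. LPS replicate 2 lay inside the CON range of MLEC, and the log2 fold change was 1.16 ± 0.44 at an adjusted p of 0.3302 (edgeR).

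The list of signaling and integrated stress response genes (23 tested) had a median of -0.01 and held genes that differed in both directions. ATF5, a target of the PERK arm and a liver transcription factor, had 1451, 2967 and 2228 CPM in CON livers against 468.4, 1367 and 188.8 in LPS livers. All LPS libraries lay below all CON libraries, and the log2 fold change was -1.72 ± 0.64 at an adjusted p of 0.3302 (edgeR). ATF3, a stress-induced factor, had 18.5, 20.9 and 14.9 CPM in CON livers against 59.3, 4.58 and 232.3 in LPS livers. LPS replicate 2 was below and the other LPS libraries above the CON range, for a log2 fold change of 2.45 ± 0.99 at an adjusted p of 0.362 (edgeR). CEBPB, a factor of the acute-phase and stress responses, was at a log2 fold change of 1.204 ± 0.48 at an adjusted p of 0.353 (edgeR) and had 167.0 to 337.6 CPM in CON livers and 737.6, 228.4 and 741.3 CPM in LPS replicates 1, 2 and 3.

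Markers of other cell types that liver tissue can hold were read in the same libraries. All 12 plasma or B cell markers had reads, and their summed level was 40.8, 56.9 and 145.1 CPM in CON livers against 32.9, 60.7 and 64.7 in LPS livers. Of the 10 that were tested, 2 had a log2 fold change above 0 and the median was -0.46. CON replicate 3 had the highest sum, and the other CON libraries lay within the LPS range. Of 14 neutrophil markers 9 had a row, and their sum was 22.7 to 34.2 CPM in CON livers and 178.4, 88.7 and 326.4 CPM in LPS replicates 1, 2 and 3. The sum was higher in all LPS libraries and lowest among them in LPS replicate 2, and its part in the values of the set was not tested. Kupffer cell or macrophage markers summed to 2528 to 4328 CPM in CON livers and 2743 to 4291 CPM in LPS livers, with LYZ at 0 in all libraries. Their similar sums hide a difference in direction. Of the 12 that were tested, 11 had a log2 fold change below 0 and the median was -0.48. CD14, the 1 above 0, had 517.8, 818.2 and 821.4 CPM in CON livers against 1354, 804.9 and 2328 in LPS livers. T or NK cell markers summed to 130.4 to 162.4 CPM in the CON group and 66.5 to 147.7 CPM in the LPS group. Endothelial markers summed to 261.9 to 338.8 CPM and 168.6 to 304.6 CPM in the same order. A log2 fold change below 0 was found for 6 of 8 tested T or NK cell markers and 6 of 7 tested endothelial markers. Cholangiocyte or stellate cell markers summed to 938.8 to 1338 CPM and 698.6 to 1471 CPM, in the CON and LPS groups in turn. This sum joins markers of both directions, with 5 of the 9 tested above 0 and 4 below. The part of any of these cells in the values of the set was not tested.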

How the data were processed

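The table that the authors deposited holds raw read counts, coordinates and exon lengths of 31908 Ensembl pig genes. Adapter trimming with cutadapt 1.9.3 and alignment with HISAT2 are named in the submitters' processing notes. Those notes name no pig build. The table's positions overlap those of the same symbol in RefSeq's Sscrofa11.1 annotation for 13674 of 13830 symbols (98.87%), and coordinates are printed as deposited. The counting program and its treatment of strand and shared exons are not stated in any source used here. The labels list 2 sequencing entries for each of CON replicates 1 and 2 and the table has 1 column for each, and 0 sample columns were left unmapped. No pair of replicates agreed within sampling noise (the lowest chi-square per gene was 46.8). Symbols were paired with 15029 identifiers.

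The groups were compared with edgeR 4.0.16 (R 4.3.3): filterByExpr with a minimum count of 10, TMM factors, glmQLFit with robust settings and glmQLFTest without a block, with Benjamini-Hochberg adjustment over the 12774 tested genes. A call needed an adjusted p below 0.05 together with more than 1.5-fold change. Standard errors were derived from the log2 fold change and the root of its F statistic. Log2 levels used a prior count of 2. The procedure was tested on simulated data. Library values were given for genes that were called, had an unadjusted p below 0.05 or had groups that did not overlap, for HSPA5, HSP90B1, XBP1, ATF4, DDIT3, ERN1, ATF6 and EIF2AK3, and for up to 3 genes of each other list by p; CREB3L3, TRIB3, CHAC1, P4HB, CANX and HERPUD1 were given beyond this rule after their values were seen. The genes of the set and all lists were chosen with earlier results of these data known. The tests were repeated with limma-voom (limma 3.58.1), DESeq2 1.42.0, RLE factors, library totals in place of TMM, no filter on low counts, a filter of 10 counts in each library, a replicate block, and each library left out in turn. Protein and promoter sequences and the antibody-bound libraries were not analysed here.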

Additional observations from a re-analysis of the deposited data

How the results depend on the processing

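Of the median log2 fold change of the set and the 16 genes followed through all alternatives, 1 value reversed: EIF2AK3 was at -0.30 without LPS replicate 3, and up to 0.75 without LPS replicate 1. The median stayed between 0.24 (without LPS replicate 3) and 0.67 (without LPS replicate 2), with 0.40 without CON replicate 2. Genes called across the whole table numbered 12 with scaling to total counts, 885 without a filter, 0 with at least 10 counts in every library (edgeR; 5.94% of its tested genes were higher at an unadjusted p below 0.05), 420 with DESeq2, 2 with limma-voom and 0 to 982 when 1 library was left out (0 without any single CON library, 1 without LPS replicate 1, 982 without LPS replicate 2 and 58 without LPS replicate 3). Without a filter, 2 of 33 genes of the set were called, where 3.76% of all tested genes were called. They were PPP1R15A (adjusted p = 9.77e-05) and CRELD2 (adjusted p = 0.00221, both edgeR). The PPP1R15A difference rested on LPS replicate 3, and in the filtered fit without that library its log2 fold change was 0.12. Genes of the set called numbered 1 with DESeq2 (2.98% of all tested genes) and 0 to 2 when 1 library was left out (0% to 7.20%). DESeq2 gave no adjusted p for PPP1R15A. Genes of the set higher at an unadjusted p below 0.05 numbered 4 with scaling to total counts (4.39% of all tested genes) and 5 with limma-voom (4.70%). They numbered 7 without CON replicate 1 (3.38%), 1 without CON replicate 2 (4.13%) and 5 without CON replicate 3 (5.36%). They numbered 3 without LPS replicate 1 (4.64%), 12 without LPS replicate 2 (11.3%) and 7 without LPS replicate 3 (5.71%). Lower ones numbered 0 to 1. Genes of the set whose groups did not overlap in the higher direction numbered 4 with scaling to total counts (4.81% of all tested genes). They numbered 8 without CON replicate 2 (9.44%), 16 without LPS replicate 2 (18.8%) and 9 to 12 without another library (8.78% to 13.2%). In the lower direction they numbered 0 without CON replicate 2 (12.9%) or LPS replicate 3 (15.4%). They numbered 1 without CON replicate 1 (13.5%) or 3 (15.1%), and 2 without LPS replicate 1 (12.0%) or 2 (22.5%). The deviations of same-numbered libraries from their group means correlated at -0.24, 0.22 and 0.03. Those of differently numbered libraries correlated at -0.25 to 0.22. With 3 libraries per group the deviations are not independent, so these values cannot decide whether the numbers pair the libraries. With the replicate block, 51 genes were called, 0 of them in the set, and 6 genes of the set were higher at an unadjusted p below 0.05, against 4.83% of all tested genes. Counting error is largest in LPS replicate 1, the shallowest library.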

Other observations

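The heat shock proteins of the cytosol and mitochondria are the counterpart of the ER chaperones and answer to the factor HSF1. Of 14 listed genes 12 had a row and were tested, and all 12 had a log2 fold change above 0 (median 0.90). An unadjusted p below 0.05 was met by 5, all higher, where 6.18% of all tested genes were higher. None was called by edgeR and 2 were called higher by DESeq2, which called 1.96% of all its tested genes higher. The list was written with earlier results of these data known. BAG3, a co-chaperone that steers clients to autophagy, had 88.7, 81.6 and 150.5 CPM in CON replicates 1, 2 and 3 and 556.9, 85.9 and 1257 CPM in LPS replicates 1, 2 and 3. DNAJB1, the J-domain partner of cytosolic HSP70, had 61.0, 58.6 and 70.1 CPM in the CON group and 242.5, 41.9 and 649.6 CPM in the LPS group. HSP90AA1, the inducible HSP90, had 1006, 592.7 and 1052 CPM in the CON group and 2058, 818.0 and 3242 CPM in the LPS group. In each of these genes LPS replicate 2 lay within or below the CON range while LPS replicate 3 was the highest library. The log2 fold changes were 2.57 for BAG3, 2.30 for DNAJB1 and 1.21 for HSP90AA1, with edgeR adjusted p of 0.247, 0.274 and 0.360. Without LPS replicate 2, 5 of the 12 were called higher (HSPA8, HSPH1, HSP90AA1, DNAJB1 and BAG3), where 3.76% of all tested genes were.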
